A study of Homo sapiens with 3 samples.

Results

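The genes described here encode the enzymes that make and use S-adenosylmethionine for polyamine synthesis, together with the proteins that control polyamine levels. They are MAT2A, MAT2B, AHCY, ODC1, AMD1, SAT1, OAZ1, OAZ2, AZIN1 and SRM, 10 of the 18239 genes named by the array annotation. The set was chosen by the MAT2A values, which were lower than control on both treated arrays, so the MAT2A values against control are given as a description. Affymetrix 3' arrays were used to measure messenger RNA in A498, an established cell line of human kidney carcinoma origin with epithelial features. All cultures were grown to confluence, moved to serum-free RPMI with gentamicin and harvested at 4 h. The control culture held 0.08% DMSO, a second culture held E. coli 83972, a urinary tract colonizer that causes no symptoms, and the other held 60 µM DRB, a nucleoside analogue that inhibits the elongation kinase CDK9. The labels state no DMSO for the treated cultures and disagree on the bacterial concentration, which is therefore not given. There was 1 array for each culture, all numbered as experiment 2, so a difference compares single arrays and carries no replicate error and no test.

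Methionine adenosyltransferase joins methionine to the adenosyl group of ATP, which yields S-adenosylmethionine, the methyl donor of most methylation reactions. MAT2A encodes the catalytic subunit found outside the adult liver and MAT2B its regulatory subunit, and AHCY hydrolyses the S-adenosylhomocysteine that methylation leaves behind. For polyamines, ODC1 decarboxylates ornithine to putrescine, AMD1 decarboxylates S-adenosylmethionine to the aminopropyl donor, and SRM combines both into spermidine. SAT1 acetylates spermidine and spermine for breakdown or export. The antizymes OAZ1 and OAZ2 bind ornithine decarboxylase and direct it to the proteasome, and AZIN1, an inactive relative of ornithine decarboxylase, sequesters the antizymes. The messages of several of these genes are known to be short-lived or to respond to the metabolite they control.

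The 10 genes had 35 probe sets, each annotated to 1 gene. Values are the authors' log2 probe-set values, and a difference is the value on one array minus that on another. Each gene was represented by its brightest probe set, the one with the highest mean over the 3 arrays, and a gene was kept when its highest value reached 4.88, the median of all values. All 10 members were kept, among 11653 genes in all, and 33 of their probe sets reached that level. At least 2-fold, or 1 on the log2 scale, is the size used for counts. A technical error was estimated from the disagreement between the brightest and the next brightest kept set over 6317 genes. As a standard deviation on the log2 scale it was 0.12 when the E. coli 83972 array was set against control (plain estimate 0.18, which counts discordant sets fully). It was 0.15 (0.32) when DRB was set against control, and 0.17 (0.35) between the treated arrays. Variation between cultures is not part of it.

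Of the kidney epithelial and renal carcinoma markers, 6 of the 7 with a probe set reached the filter level on each array, among them PAX8, LHX1, KRT8 and KRT18, while EPCAM stayed below it. LHX1, a kidney lineage factor, differed by −1.42 with E. coli 83972 and −1.66 with DRB (means −0.80 and −0.76 over 3 probe sets), and PAX8 by −0.98 with DRB (mean −0.15 over 4). Of 5 markers each, 2 to 3 leukocyte, 2 endothelial and 1 fibroblast marker reached that level. CD68, a lysosomal protein gene used as a macrophage marker, read 9.08 on the control array and differed from it by −0.08 with E. coli 83972 and 0.32 with DRB, and LST1 read between 6.05 and 6.23. CD3E reached the level on the DRB array only (5.03), PECAM1 and VWF read between 5.37 and 5.60, and COL1A1 between 4.98 and 5.10. The leukocyte markers PTPRC and CD14, the endothelial markers CDH5, KDR and TEK and the fibroblast markers COL1A2, PDGFRB, DCN and LUM were below the filter level on all 3 arrays. The 24 probe sets of poly-A spike-ins, transcripts added before labelling, had a median difference of 0.14 for E. coli 83972 and 0.65 for DRB against control, and the 9 of hybridization spike-ins 0.25 and 0.21. The difference between the 3' and 5' probe sets of GAPDH was between 0.08 and 0.16 on the 3 arrays, and that of ACTB between 1.83 and 2.00. The part of these differences in the results was not tested.

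With E. coli 83972, MAT2A, AMD1 and ODC1 were lower than control and SAT1 was higher, while the other 6 members differed by at most 0.26 in size at their brightest probe sets. With DRB, MAT2A and AMD1 were lower and ODC1 was within 0.02 of control in the values as deposited. The brightest probe sets put MAT2A 2.05-fold lower with E. coli 83972 and 5.83-fold lower with DRB, and AMD1 1.49-fold and 2.03-fold lower. With DRB the other 5 MAT2A sets differed from control by only −0.94 to −0.40 on the log2 scale. The dimmest of these was below the filter level. ODC1 was 1.57-fold lower and SAT1 1.97-fold higher with E. coli 83972. The same control array served for both comparisons, so an error of that array enters both differences of a gene.

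The promoters of these 4 members are shown because they had the largest differences of the set, and they give the sequence context from which the transcripts start. The 250 bases before the start of each are taken from RefSeq on GRCh38.p14, read 5′ to 3′ on the strand of the gene. They lie at chr2:85538918-85539167 (plus strand) for MAT2A, chr6:110874535-110874784 (plus) for AMD1, chr2:10448328-10448577 (minus) for ODC1 and chrX:23782923-23783172 (plus) for SAT1. The table had 15 entries for 9 of the members. Among them were 3 for AMD1 and 2 for ODC1, of which 1 each is shown. Capitals mark matches, on either strand, to TATAA (the core of the TATA box), to the CCAAT box, to TGACG (the core of the cyclic AMP response element) and to the E-box CACGTG.
MAT2A: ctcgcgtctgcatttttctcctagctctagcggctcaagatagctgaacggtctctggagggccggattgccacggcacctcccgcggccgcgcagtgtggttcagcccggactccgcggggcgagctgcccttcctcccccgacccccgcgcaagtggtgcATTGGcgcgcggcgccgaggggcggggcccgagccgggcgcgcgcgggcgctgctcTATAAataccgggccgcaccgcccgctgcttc
AMD1: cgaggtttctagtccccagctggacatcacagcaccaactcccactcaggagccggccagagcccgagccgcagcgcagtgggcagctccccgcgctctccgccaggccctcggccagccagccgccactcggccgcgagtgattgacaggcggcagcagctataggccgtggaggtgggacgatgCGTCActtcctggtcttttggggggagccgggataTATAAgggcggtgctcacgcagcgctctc
ODC1: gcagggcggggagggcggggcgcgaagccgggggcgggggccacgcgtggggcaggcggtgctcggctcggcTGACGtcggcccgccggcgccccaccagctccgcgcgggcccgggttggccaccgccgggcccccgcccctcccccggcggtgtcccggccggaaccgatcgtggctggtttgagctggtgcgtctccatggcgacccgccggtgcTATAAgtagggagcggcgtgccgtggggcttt
SAT1: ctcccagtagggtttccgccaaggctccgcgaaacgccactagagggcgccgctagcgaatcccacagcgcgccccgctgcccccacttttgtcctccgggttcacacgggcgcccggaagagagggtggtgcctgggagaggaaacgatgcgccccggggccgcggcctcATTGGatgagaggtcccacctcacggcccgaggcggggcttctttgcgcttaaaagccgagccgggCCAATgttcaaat
The letters TATAA begin 32 bases before the start in MAT2A, 29 in AMD1 and 32 in ODC1, and are not in the SAT1 window. Of 35116 RefSeq promoter windows of this length, 18.9% hold TATAA on either strand, and the shares with the other motifs are 32% for the CCAAT box, 21.2% for TGACG and 6.34% for the E-box. CCAAT or its complement occurs once in the MAT2A window and 2 times in that of SAT1. TGACG or its complement occurs once in each of the AMD1 and ODC1 windows, and the E-box is in none of the 4. Matches depend on the entry: the other one of ODC1 (chr2:10448013-10448262) holds the E-box and TGACG but no TATAA. Of the other entries of AMD1, one is offset by 1 base and holds the same matches, and the other (chr6:110814367-110814616) holds a CCAAT match and neither TATAA nor TGACG. These matches are a description of the letters and not of bound factors.

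MAT2A read 11.30 on the control array, 10.26 on the E. coli 83972 array and 8.75 on the DRB array at its brightest probe set. The control array was highest and the DRB array lowest there. The differences from control were −1.04 and −2.54. At the 5 other probe sets the values ran from 4.48 to 7.01 on the control array, from 4.00 to 6.20 with E. coli 83972 and from 4.08 to 6.10 with DRB. All 6 probe sets were lower than control on both treated arrays.

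The brightest MAT2A set lay among the others for the bacterium and apart from them for DRB. With E. coli 83972 the brightest set (−1.04) lay inside the range of the others, which was −1.23 to −0.47 (mean −0.89 ± 0.28, SD over 5 probe sets), and 3 of the 6 sets were at least 2-fold lower. With DRB the brightest set (−2.54) lay outside the range of the others, −0.94 to −0.40 (mean −0.75 ± 0.23, SD over 5 probe sets), and it was the only one at least 2-fold lower. The mean over all 6 sets was −0.92 ± 0.26 (SD) for the bacterium and −1.05 ± 0.76 for DRB. The order of the treated arrays therefore rested on the probe set. E. coli 83972 was 1.51 above DRB at the brightest set, but between −0.59 and 0.13 at the others, with 4 of them below 0. The dimmest of the 5 others was below the filter level on all 3 arrays (4.48, 4.00 and 4.08). It gave the −0.47 and −0.40 ends of the ranges. Without it the others ran from −1.23 to −0.81 with E. coli 83972 and from −0.94 to −0.64 with DRB. The 5 other sets read lower values, and RMA compresses differences of dim sets. The part of this compression was not tested. The transcript region read by each set is not given in the sources used here.

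**Figure D1:**
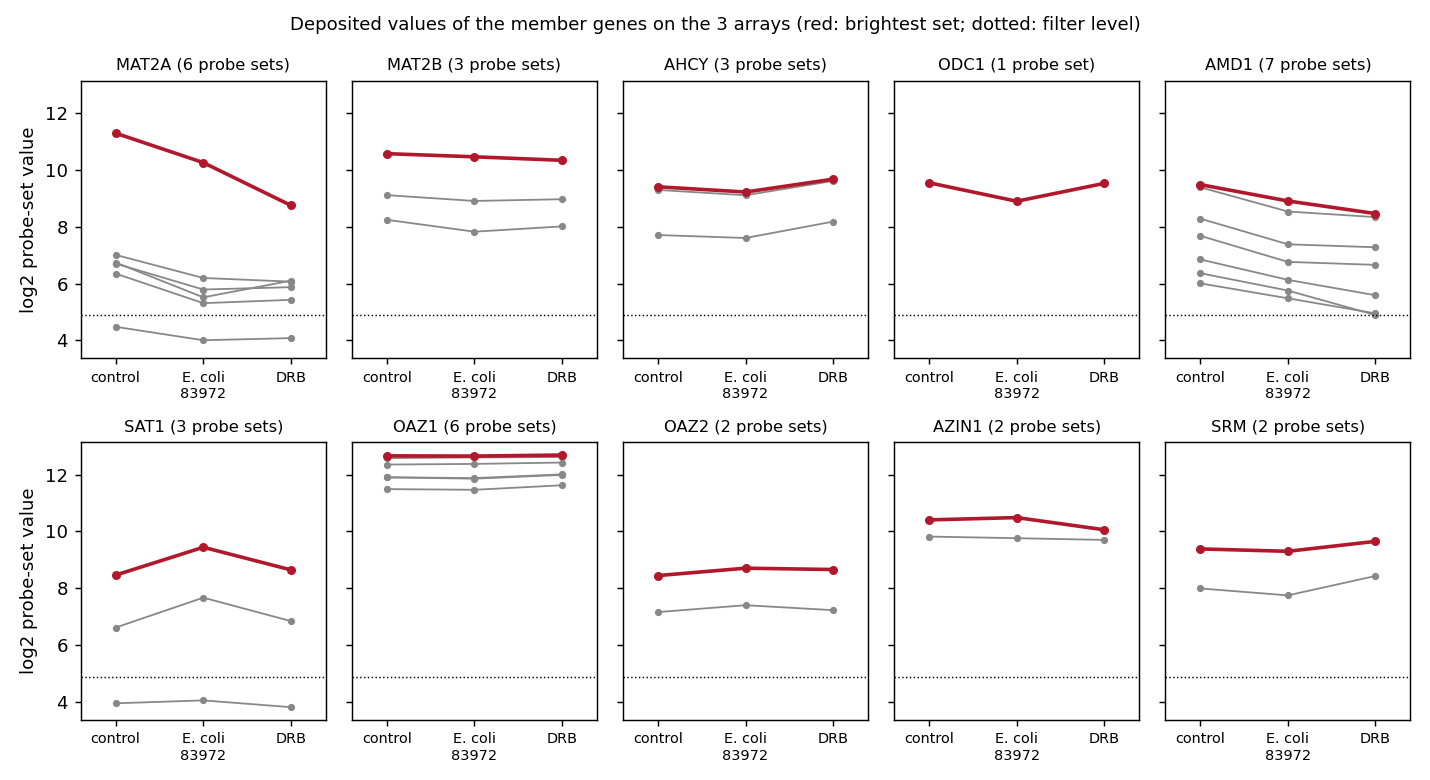
Deposited log2 values (vertical axis) of all 35 probe sets of the 10 genes on the control, E. coli 83972 and DRB arrays (horizontal axis), 1 panel a gene. Each line is a probe set, red for the brightest, and the dotted line is the filter level of 4.88; the brightest MAT2A set runs from 11.30 to 10.26 and 8.75, while SAT1 peaks on the E. coli 83972 array at 9.44.

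AMD1, the S-adenosylmethionine decarboxylase gene, was lower than control on both treated arrays at every probe set, by 0.53 or more. Its brightest set read 9.49 on the control array, 8.91 with E. coli 83972 and 8.47 with DRB. The order of the arrays was that of the brightest MAT2A set, but not that of 4 other MAT2A sets. AMD1 differed from control by −0.58 and −1.02 at its brightest set. Over its 7 probe sets the difference ran from −0.92 to −0.53 with E. coli 83972 (mean −0.73 ± 0.16, SD) and from −1.47 to −1.01 with DRB (mean −1.13 ± 0.18). None of the sets reached 2-fold with the bacterium, and all 7 did with DRB. The largest DRB differences of AMD1 were those of 2 dim sets (−1.47 and −1.26), while the other 5 lay between −1.06 and −1.01. The E. coli 83972 array was above the DRB array at all 7, by 0.11 to 0.86. Among the 512 kept genes with at least 7 probe sets, 1.17% had every set below control on both treated arrays. The limit of 7 equals the number of AMD1 sets, and AMD1 is among the genes counted, so this share is a description only. Several sets of MAT2A and AMD1 carry suffixes (s or x) that Affymetrix gives to probes shared with other transcripts. The brightest sets of both genes are s sets, as are those of SAT1, MAT2B and OAZ2, and that of OAZ1 is an x set. A share of the signal of such sets from related sequences cannot be told apart.

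ODC1, which catalyses the committed step of polyamine synthesis, read 9.55 on the control array, 8.90 with E. coli 83972 and 9.53 with DRB. Only the E. coli 83972 array was low, by −0.65 against control and −0.63 against DRB, and the DRB array differed from control by −0.02. The gene had 1 probe set, so no second reading of these values exists and its technical error could not be estimated. In E. coli 83972 against control, 2.24% of kept genes had a lower value than ODC1. With centring on poly-A spike-ins ODC1 was below control on both arrays, at −0.79 with the bacterium and −0.67 with DRB, and the difference between the treated arrays was −0.11.

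SAT1, which encodes the acetyltransferase that starts polyamine breakdown, was the member highest above control with E. coli 83972. Its brightest set read 8.46 on the control array, 9.44 with E. coli 83972 and 8.65 with DRB. The second set read 6.61, 7.67 and 6.84 in the same order. The E. coli 83972 array was thus high at both, by 0.98 and 1.05, which lie just outside and just inside the 2-fold size. With DRB the differences were 0.18 and 0.23. The remaining set was below the filter level on all arrays (3.94, 4.05 and 3.81) and differed by 0.10 and −0.14. E. coli 83972 was 0.80 above DRB at the brightest set. The direction with DRB turned with poly-A centring, to −0.47, while the difference with E. coli 83972 was 0.84 there and 0.71 as the mean over the 3 sets.

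MAT2B, the regulatory partner of MAT2A, showed no difference of similar size. It read 10.58 on the control array, 10.47 with E. coli 83972 and 10.34 with DRB. All 3 of its probe sets were below control on both arrays, by 0.11 to 0.42 and by 0.14 to 0.23. AHCY and the spermidine synthase gene SRM resembled each other. AHCY read 9.41, 9.23 and 9.68, and SRM 9.38, 9.30 and 9.65, on the control, E. coli 83972 and DRB arrays. All 5 of their probe sets were highest on the DRB array and lowest on the E. coli 83972 array. The DRB array was above control by 0.27 to 0.47 for AHCY and by 0.27 to 0.44 for SRM. With centring on poly-A spike-ins the DRB differences turned below 0, to −0.38 for AHCY and −0.39 for SRM. The DRB difference of MAT2B was −0.89 there.

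The antizyme genes and the antizyme inhibitor gene were near control in the values as deposited. OAZ1 read 12.66, 12.66 and 12.69 on the control, E. coli 83972 and DRB arrays, close to the top of the scale, where differences may be compressed. Its 6 probe sets differed from control by −0.05 to 0.02 with the bacterium and by 0.03 to 0.14 with DRB. OAZ2 read 8.45, 8.71 and 8.66, and its 2 probe sets were above control by 0.26 and 0.24 with E. coli 83972 and by 0.21 and 0.07 with DRB. AZIN1 read 10.41, 10.49 and 10.06, and its 2 sets differed by 0.08 and −0.06 with the bacterium, and by −0.35 and −0.12 with DRB. The direction of AZIN1 with E. coli 83972 is therefore not settled, and those of OAZ1 in both comparisons and OAZ2 with DRB turned under some scalings. With centring on poly-A spike-ins the DRB differences were −0.999 for AZIN1, −0.62 for OAZ1 and −0.44 for OAZ2.

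**Figure D2:**
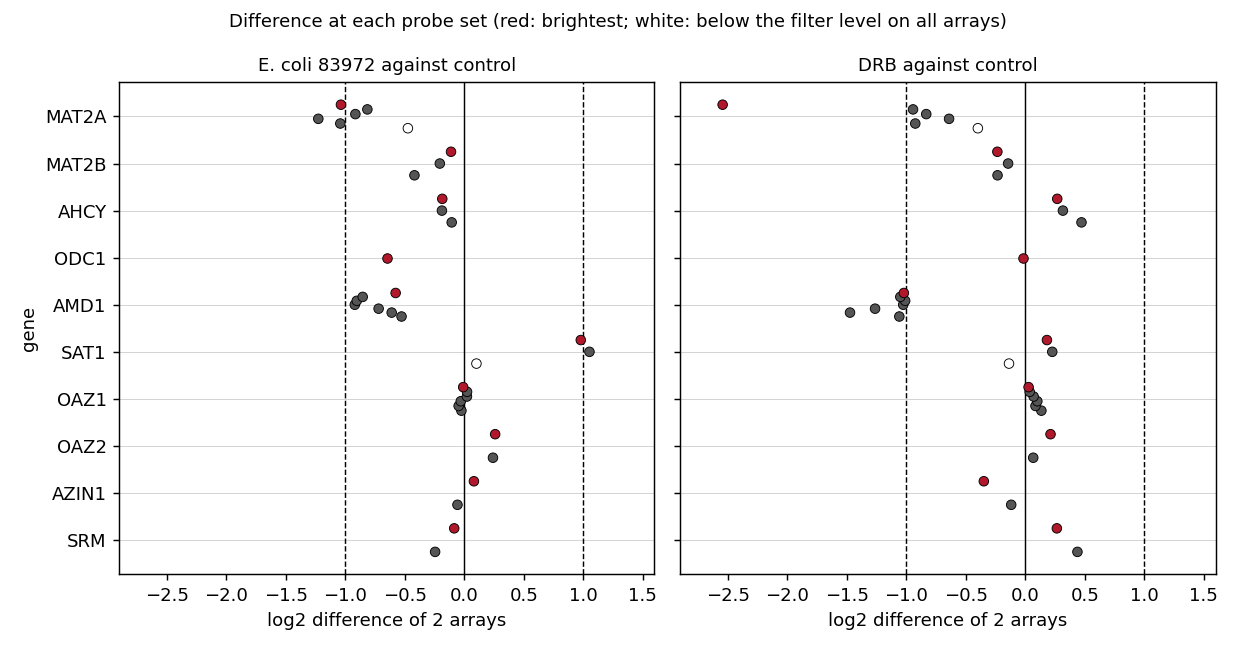
Log2 difference from control (horizontal axis) at each probe set of the 10 genes (vertical axis) for E. coli 83972 (left) and DRB (right), with red points for the brightest set, white points for sets below the filter level and dashed lines at 2-fold. With DRB the brightest MAT2A set stands at −2.54, apart from its other 5 between −0.94 and −0.40, while the 7 AMD1 sets lie between −1.47 and −1.01.

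Set beside all genes, the members' counts were as follows. With E. coli 83972, 1 of 10 members (MAT2A) was at least 2-fold lower and 0 were at least 2-fold higher, against 0.652% and 1.91% of kept genes. The median difference of the members was −0.10 and that of all kept genes −0.03. With DRB, 2 of 10 (MAT2A and AMD1) were at least 2-fold lower and 0 higher, against 10.2% and 0.129% of kept genes. The members' median was 0.0041 and that of all kept genes 0.05. In E. coli 83972 against DRB, 1 member (MAT2A) was at least 2-fold higher and 0 were lower, against 12.3% and 0.386% of kept genes, with medians of 0.09 and −0.07. MAT2A was among the 43 kept genes (0.369%) that were at least 2-fold lower on both treated arrays. The set was chosen because MAT2A was lower on both, so its place among them is a description. These counts rest on 1 or 2 genes and sit close to the 2-fold size: the MAT2A difference with the bacterium was −0.92 with the mean over probe sets, and AMD1 with DRB was −0.99 after quantile normalization.

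**Figure D3:**
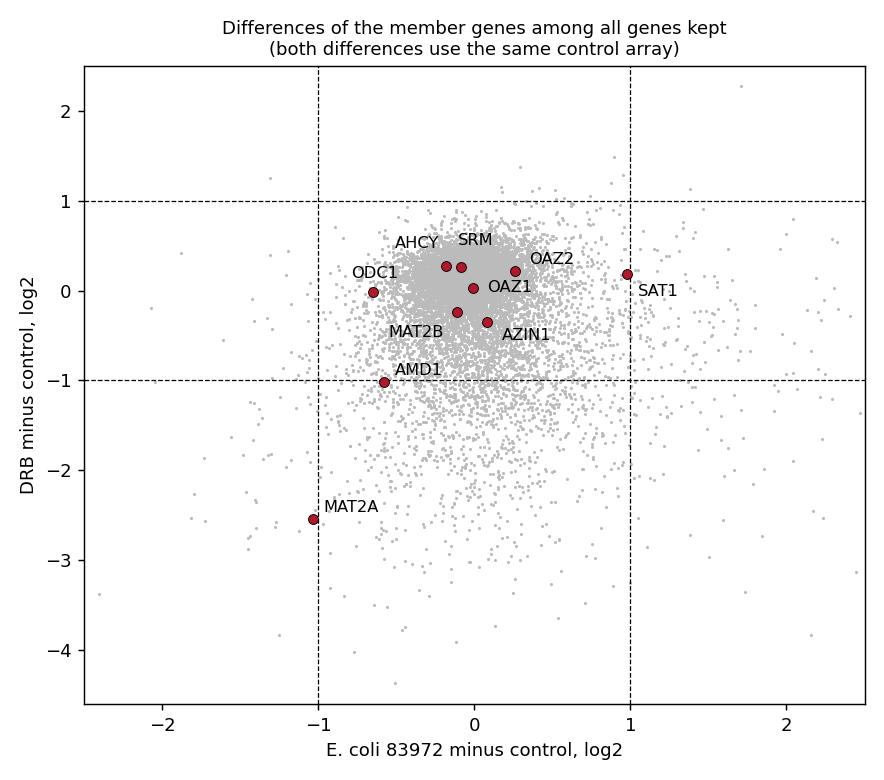
Difference from control with E. coli 83972 (horizontal axis) against that with DRB (vertical axis), both log2, for the kept genes (grey points; 27 of 11653 lie outside the axes) and the 10 members (red, named). The dashed lines mark 2-fold; MAT2A lies at −1.04 and −2.54, AMD1 at −0.58 and −1.02, ODC1 at −0.65 and −0.02, and SAT1 at 0.98 and 0.18.

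The wider pathway was read from 6 lists with 62 genes, members included, of which 60 had a probe set and 56 were kept. With E. coli 83972, 1 gene was at least 2-fold lower (MAT2A) and 1 at least 2-fold higher (CTH). Each is 1.79% of the 56, against 0.652% lower and 1.91% higher among all kept genes. The enzyme of CTH makes cysteine from the cystathionine of the methionine cycle. CTH read 6.52 on the control array, 7.99 with E. coli 83972 and 5.95 with DRB, so it was 1.47 above control with the bacterium and 0.58 below it with DRB. It had 1 probe set. After CTH and SAT1, the next highest was MTAP, which recovers methionine from the by-product of polyamine synthesis, at 0.66 (mean 0.69 over 6 probe sets). The lowest after MAT2A were ODC1 and AMD1, followed by MRI1 of the same salvage route at −0.55 (mean −0.11 over 3 probe sets). The median over the 56 genes was −0.05.

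With DRB, 5 of the 56 were at least 2-fold lower and none was as much higher (0), and their median was 0.04. That is 8.93% of the 56, near the 10.2% of all kept genes. Beside MAT2A and AMD1 they were SAMTOR, a sensor that links S-adenosylmethionine to mTORC1, METTL14, a subunit of the enzyme that writes N6-methyladenosine, and EZH2, a histone methyltransferase. SAMTOR read 7.38 on the control array, 7.99 with E. coli 83972 and 5.80 with DRB, a DRB difference of −1.58 at the brightest set and −0.69 as the mean over 2 sets. METTL14, with 1 probe set, differed by −1.10, and EZH2 by −1.09 (mean −0.56 over 3 sets). METTL16, which methylates MAT2A RNA and controls its splicing, differed by −0.66 (mean −0.16 over 5 sets). The highest were the arginine methyltransferase gene CARM1 (0.47), ATP13A2, a lysosomal polyamine exporter (0.41), and the antizyme gene OAZ3 (0.40). All were below 0 with centring on poly-A spike-ins, which lowers every DRB difference by 0.65. OAZ3 had 1 probe set, near the filter level of 4.88. It read 5.19 on the control array, 4.86 with E. coli 83972 and 5.58 with DRB.

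By list, the methionine cycle had 1 of 13 kept genes at least 2-fold lower in each comparison with control. That gene was MAT2A, whose values chose the set. CTH alone was higher, with E. coli 83972, where 0.652% of all kept genes were lower and 1.91% higher by that size. The polyamine list had 0 of 16 lower with E. coli 83972 and 1 with DRB (AMD1). Of its other members, SMOX, which oxidizes spermine, differed by 0.40 and −0.29, and the spermine synthase gene SMS by −0.20 and 0.14. Salvage (5 genes) and hypusine genes (4) had 0 at least 2-fold different from control. The enzymes of DHPS and DOHH modify EIF5A with a group taken from spermidine. Of the 7 genes of MAT2A RNA and S-adenosylmethionine sensing, 2 were lower with DRB, and of the 11 methyltransferases 1, counts to be read against the 10.2% of all kept genes that were lower with DRB. In E. coli 83972 against DRB, 4 of the 56 (7.14%, against 12.3% of all kept genes) were at least 2-fold higher and 0 lower: SAMTOR (2.19; mean 1.04), CTH (2.05), MAT2A (1.51) and EIF5A2 (1.20; mean 0.35 over 4 sets). The lowest were OAZ3 (−0.72, 1 set near the filter level), MRI1 (−0.64, mean −0.31 over 3 sets) and ODC1 (−0.63).

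**Figure D4:**
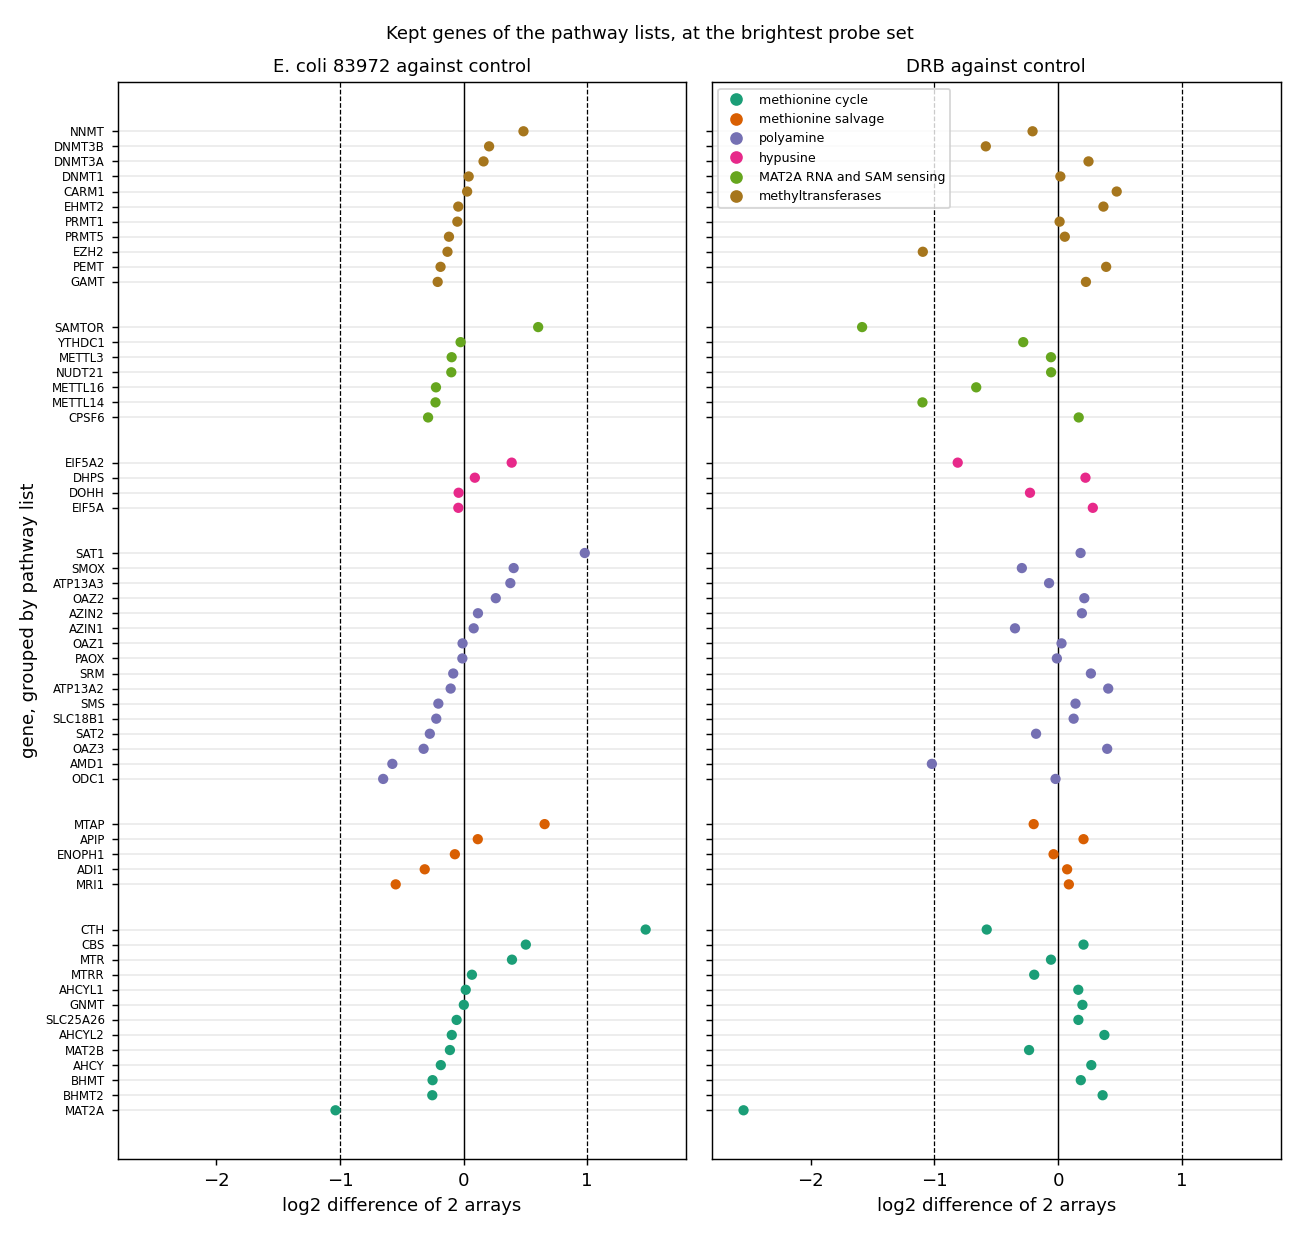
Log2 difference from control (horizontal axis) of the 56 kept genes of the pathway lists (vertical axis, coloured by list) with E. coli 83972 (left) and DRB (right), at the brightest probe set, with dashed lines at 2-fold. CTH stands at 1.47 and MAT2A at −1.04 on the left, and MAT2A at −2.54 and SAMTOR at −1.58 on the right.

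Outside these lists, the kept genes whose pair of differences from control lay closest to that of MAT2A at its brightest set, by Euclidean distance over those 2 differences, were CARD6 (distance 0.08), DNAJB1 (0.11), RIOX1 (0.14), HEXIM1 (0.16) and RBM12B (0.23). CARD6 differed by −0.97 and −2.59, though its mean over 3 probe sets was −0.33 and −0.86. The co-chaperone gene DNAJB1 differed by −1.02 and −2.43 (means −0.93 and −1.69 over 3 sets). HEXIM1, whose protein inhibits the kinase CDK9 within P-TEFb, differed by −1.12 and −2.68 (means −1.20 and −2.35 over 5 sets). RIOX1, with 1 probe set, differed by −0.93 and −2.45, and RBM12B by −1.27 and −2.58 (means −0.87 and −1.55 over 3 sets). Likeness was measured at the brightest sets only, and the MAT2A means over its 6 sets were −0.92 and −1.05. On the DRB array CARD6 (4.54), RIOX1 (3.95) and RBM12B (4.79) read below the filter level of 4.88.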

How the data were processed

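A498 messenger RNA was profiled on 1 array each for control, E. coli 83972 and DRB, with the number of arrays limiting the precision. The authors deposited probe-set values on a log2 scale, made with RMA and Partek per the submitters' processing notes; neither a version nor how many arrays entered that normalization is given in the sources used here. RMA brings arrays to nearly one distribution, so a change shared by most transcripts is reduced.

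The table held 49386 probe sets: 45259 had 1 gene symbol, 1327 several and 2800 none, and only the first kind were named. Symbols were updated by Entrez identifier with RefSeq names of GRCh38.p14. Genes were represented and filtered as described above, with numpy 2.4.6, pandas 2.3.3 and statsmodels 0.14.6. No test was run and no p-value is given. A check on simulated data (DRB against control, 11327 genes) called 98 of 98 genes given a log2 change of 1.5 and 0 of 11130 given none. The simulated noise was small and independent, and all probe sets of a gene were shifted alike, so this outcome followed from the setting. It checks the code and gives no error rate for the real arrays.

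The members, the 10 other gene lists (6 pathway, 4 cell type markers) and the comparisons were chosen with earlier results of these data known. Genes named are all members, the 3 highest and 3 lowest pathway genes of each comparison, any pathway gene at least 2-fold different, and the 5 genes of most like pattern. MRI1 with E. coli 83972, METTL16, SMOX and SMS were named after their values were seen. Alternatives were the probe-set rule, the filter and the scaling.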

Additional observations from a re-analysis of the deposited data

How the results depend on the processing

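The filter alternatives (none, or on the mean of the 3 values) changed no result named here by more than the technical standard deviation. A filter decides which genes are kept and cannot change the difference of a gene. The MAT2A difference against control stayed below 0 under all alternatives run. That is no independent check, because the MAT2A values chose the set and all 6 of its probe sets were below control. With the mean over all probe sets the MAT2A difference was −0.92 (E. coli 83972 against control), −1.05 (DRB against control) and 0.13 (E. coli 83972 against DRB). In 2 alternatives chosen after seeing the data, its next brightest probe set gave −0.81, −0.94 and 0.13, and the mean over the 5 sets other than the brightest gave −0.89, −0.75 and −0.15, which turns the direction between the treated arrays. With centring on poly-A spike-ins it was −1.17, −3.20 and 2.02, with centring on hybridization spike-ins −1.29 and −2.76 against control, and with loess correction 1.69 for E. coli 83972 against DRB.

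The counts of members at least 2-fold lower with E. coli 83972 became 0 with loess correction and with the mean over probe sets, and those at least 2-fold higher became 1 (SAT1) with loess correction and with quantile normalization. The count lower with DRB became 1 with quantile normalization. The count higher in E. coli 83972 against DRB became 2 with poly-A centring and 0 with the mean over probe sets.

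Over all kept genes, the number at least 2-fold lower and higher with E. coli 83972 was 76 and 222 as deposited, 115 and 171 with poly-A centring, 170 and 141 with hybridization spike-in centring and 43 and 157 with the mean over probe sets. With DRB it was 1185 and 15, 2880 and 1, 1607 and 5, and 698 and 6.

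Medians followed the scaling. Poly-A centring gave −0.23, −0.65 and 0.60 for the members in the 3 comparisons, and −0.18, −0.61 and 0.46 for the pathway lists. Hybridization spike-in centring gave −0.35 and −0.21 for the members and −0.30 and −0.17 for the lists against control. Loess correction gave 0.26 for the members in E. coli 83972 against DRB, and plain-suffix probe sets 0.19 for the lists. These centrings shift the median of all kept genes too, to −0.16 and −0.60 against control with poly-A spike-ins and to −0.28 and −0.16 with hybridization spike-ins. With plain-suffix probe sets SRM alone of the members could be read, so no member count was made. Leaving out a replicate was not possible with 1 array per group. No paired analysis was possible because each group has 1 array.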

Other observations

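The probe sets of a gene did not always give the same size of difference with DRB. Of the 667 genes whose brightest kept set was at least 2-fold lower with DRB and that had other kept sets, 386 (57.9%) had another set at least 2-fold lower, and MAT2A was not among these. In the 792 genes with at least 5 kept probe sets, the brightest set and the mean of the others were at least 1 apart on the log2 scale in 20 (2.53%) with DRB and in 2 (0.253%) with E. coli 83972. For MAT2A the brightest set minus the mean of its other kept sets was −1.71 with DRB and −0.04 with E. coli 83972. Of the 792 genes, 2 (0.253%) had a value at or below that of MAT2A with DRB, and 314 (39.6%) with E. coli 83972. MAT2A itself is counted in both. These counts were made after the MAT2A values were seen, and those values chose the set, so they are a description only.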
